A study of Mus musculus with 9 samples.

Results

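Matrix metalloproteinases (MMPs) are zinc enzymes that cut the proteins of the extracellular matrix, and the tissue inhibitors of metalloproteinases (TIMPs) bind and block them. The 10 genes described here are 7 MMPs (Mmp2, Mmp3, Mmp10, Mmp12, Mmp14, Mmp17 and Mmp27) and 3 TIMPs (Timp1, Timp2 and Timp3), of 18401 named genes among 24153 features tested. They were taken by gene name from the non-control probes of the arrays, and were picked in part for their difference between diabetic and wild type glomeruli. That difference is therefore given as a description, with no test. All 10 passed the filter on dim probes, with 14 of their 16 probes. Mmp10, Mmp12 and Mmp27 passed it only through arrays of ob/ob mice, so a difference from wild type is built into their presence, and Mmp27 passed it through ob/ob vehicle alone.

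The samples were glomeruli of male BTBR mice at 22 weeks of age, isolated with magnetic Dynabeads, with total RNA measured on one-colour Agilent arrays. There were 3 groups of 3 arrays. BTBR ob/ob mice received food with enarodustat for 18 weeks, BTBR ob/ob mice received vehicle food for the same time, and BTBR wild type mice also received vehicle food. The ob/ob allele abolishes leptin in the whole animal and makes BTBR mice obese and diabetic. Enarodustat blocks the prolyl hydroxylases that mark the hypoxia-inducible factors (HIF) for destruction, and no wild type mice with the drug were among the samples. Whether each sample came from 1 mouse or from a pool is not stated, so the p-values measure the spread between these samples, which may be technical.

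Levels are log2 of the processed signal minus the 75th percentile of the array, which lay between 210.4 and 325.3 signal units. A level below 0 is a signal under that percentile, and levels of different probes cannot be set against each other. Between 62.3% and 68.3% of probes were well above background, and no spot was saturated. All 10 podocyte markers were well above background on every array, as the glomerulus label requires. The 12 proximal tubule markers were as well, with mean levels of 0.04, 2.62 and -0.10 in enarodustat replicates 1, 2 and 3, of -0.05, 0.58 and -2.22 in ob/ob vehicle and of 0.76, 0.26 and 3.70 in wild type. Within their groups, enarodustat replicate 2 and wild type replicate 3 stood apart by high levels of these markers, and ob/ob vehicle replicate 3 by a low level. Enarodustat replicate 3 was alone on its slide, and the other 8 arrays shared 1 slide and 1 scan.

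As background, MMPs are made as inactive precursors. MMP14, which sits in the cell membrane, activates MMP2 on the cell surface with the help of TIMP2. MMP2 cuts basement membrane collagen, MMP3 and MMP10 (the stromelysins) cut a broad range of matrix proteins and activate other MMPs, and MMP12 is the elastase of macrophages. In the glomerulus these enzymes and their inhibitors are known for turning over the mesangial matrix and the basement membrane. The promoters of several MMP genes are textbook targets of AP-1, the Jun and Fos dimer that growth factors and cytokines induce.

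The sequences before the starts of Mmp3, Mmp10, Mmp12 and Mmp27 are shown because these genes had the widest differences and lie in 1 cluster on chromosome 9. Those of Mmp14 and Timp1 are shown because they hold 1 form of the core of the HIF site, ACGTG. Each is the 130 bases before the annotated start, 5′ to 3′ on the gene's strand, from RefSeq on GRCm38.p6. Capitals mark the AP-1 site (TGAGTCA or its reverse complement TGACTCA), the TATA box (TATAAA) and the HIF core. Of that core only the form ACGTG (or its reverse complement CACGT, which overlaps the E-box CACGTG) was searched and marked.
Mmp3, chr9:7445692-7445821, plus strand: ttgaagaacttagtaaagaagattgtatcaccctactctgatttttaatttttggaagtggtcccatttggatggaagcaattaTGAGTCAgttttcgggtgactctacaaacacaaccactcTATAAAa
Mmp10, chr9:7502212-7502341, plus strand: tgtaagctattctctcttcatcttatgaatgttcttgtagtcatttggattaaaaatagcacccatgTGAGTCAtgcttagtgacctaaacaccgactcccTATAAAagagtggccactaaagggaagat
Mmp12 (second start), chr9:7347244-7347373, plus strand: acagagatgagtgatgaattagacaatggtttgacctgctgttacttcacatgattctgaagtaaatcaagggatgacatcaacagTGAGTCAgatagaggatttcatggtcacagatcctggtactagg
Mmp27, chr9:7571266-7571395, plus strand: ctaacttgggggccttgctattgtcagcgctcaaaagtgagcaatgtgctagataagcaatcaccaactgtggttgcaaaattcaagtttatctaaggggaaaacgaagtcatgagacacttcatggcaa
Mmp14, chr14:54431468-54431597, plus strand: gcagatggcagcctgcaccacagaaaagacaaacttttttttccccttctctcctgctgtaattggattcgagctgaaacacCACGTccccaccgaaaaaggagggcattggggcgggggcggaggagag
Timp1, chrX:20870036-20870165, plus strand: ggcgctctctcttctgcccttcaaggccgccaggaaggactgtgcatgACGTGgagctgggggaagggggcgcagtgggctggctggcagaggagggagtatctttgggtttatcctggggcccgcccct

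Windows were found for 8 of the 10 genes, all but Mmp2 and Mmp17, and the motifs were searched on both strands over the 250 bases before the start. The AP-1 site was found in 3 of the 8 genes (Mmp3, Mmp10 and, at the second of its starts, Mmp12) and in 4.46% of all 32851 windows. A gene was counted if any of its windows held the site, while the shares count single windows. Its first base lay 46 bases before the start in Mmp3, 63 bases in Mmp10 and 44 bases in Mmp12. The TATA box was found in Mmp3 and Mmp10, and in 7.59% of all windows. Mmp3 and Mmp10 held both motifs, as did 0.481% of all windows. The ACGTG form of the HIF core was found in Mmp14, 48 bases before the start, in Timp1, 82 bases before it, and in 16.6% of all windows. None of these motifs was found at the first start of Mmp12 or in the windows of Mmp27, Timp2 or Timp3. The form GCGTG of the HIF core was not searched, and the windows of Timp2 and Timp3 hold it. Among the other MMP and TIMP genes, 14 of 17 had a window, and 4 held both the AP-1 site and the TATA box, namely Mmp1a, Mmp1b, Mmp7 and Mmp13. A match is a run of letters and does not show that a factor binds.

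Set against wild type vehicle, ob/ob vehicle glomeruli had a higher mean for all 10 genes. The differences in processed signal ran from 1.12-fold for Timp2 to at least 25.9-fold for Mmp10. The arrays of the groups did not overlap for 9 of the 10, with ob/ob vehicle higher, as for 17.8% of all features. The choice of the genes used these values, so nothing is read from this count. The median log2 difference of the 10 genes was 1.12, and that of all features 0.02.

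Enarodustat was tested against vehicle within ob/ob mice, a comparison that shares the ob/ob vehicle arrays with the one used to pick the genes. A gene was called at an adjusted p under 0.05 (limma, Benjamini-Hochberg over all features). None of the 10 genes was called, and neither was any other feature (percent called 0). At an unadjusted p under 0.05 limma gave 1692 features, among them Mmp3, Mmp10 and, with the limit of the filter given above, Mmp27. For Mmp3, Mmp10 and Timp2 every enarodustat array was lower than every ob/ob vehicle array, as for 9.49% of all features. The median log2 difference of the 10 genes was -0.26, and that of all features -0.03. The choice of the genes used the same ob/ob vehicle arrays, so nothing is read from these counts and medians about the genes as a set.

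Set against wild type vehicle, with which they share the wild type arrays of the first comparison, enarodustat glomeruli were called higher for 5 of the 10 genes (Mmp3, Mmp10, Mmp12, Mmp14 and Mmp17), as for 6.1% of all features. The filter favoured Mmp10, Mmp12 and Mmp27 in this comparison, and of the other 7 genes 3 were called (Mmp3, Mmp14 and Mmp17). The groups did not overlap for 8 genes, with enarodustat higher, as for 16.8% of all features, and for 5 of those 7. The median log2 difference was 0.95 for the 10 genes, 0.83 for the 7 and -0.01 for all features. The choice of the genes used the same wild type arrays, so nothing is read from these counts and medians about the genes as a set. The p-value of a single member against wild type, here and below, has the same limit. With no filter on dim probes Mmp3, Mmp10 and Mmp12 were called. Within the slide of 8 arrays, which leaves out enarodustat replicate 3, 3 of the 10 were called (Mmp3, Mmp10 and Mmp12).

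**Figure D1:**
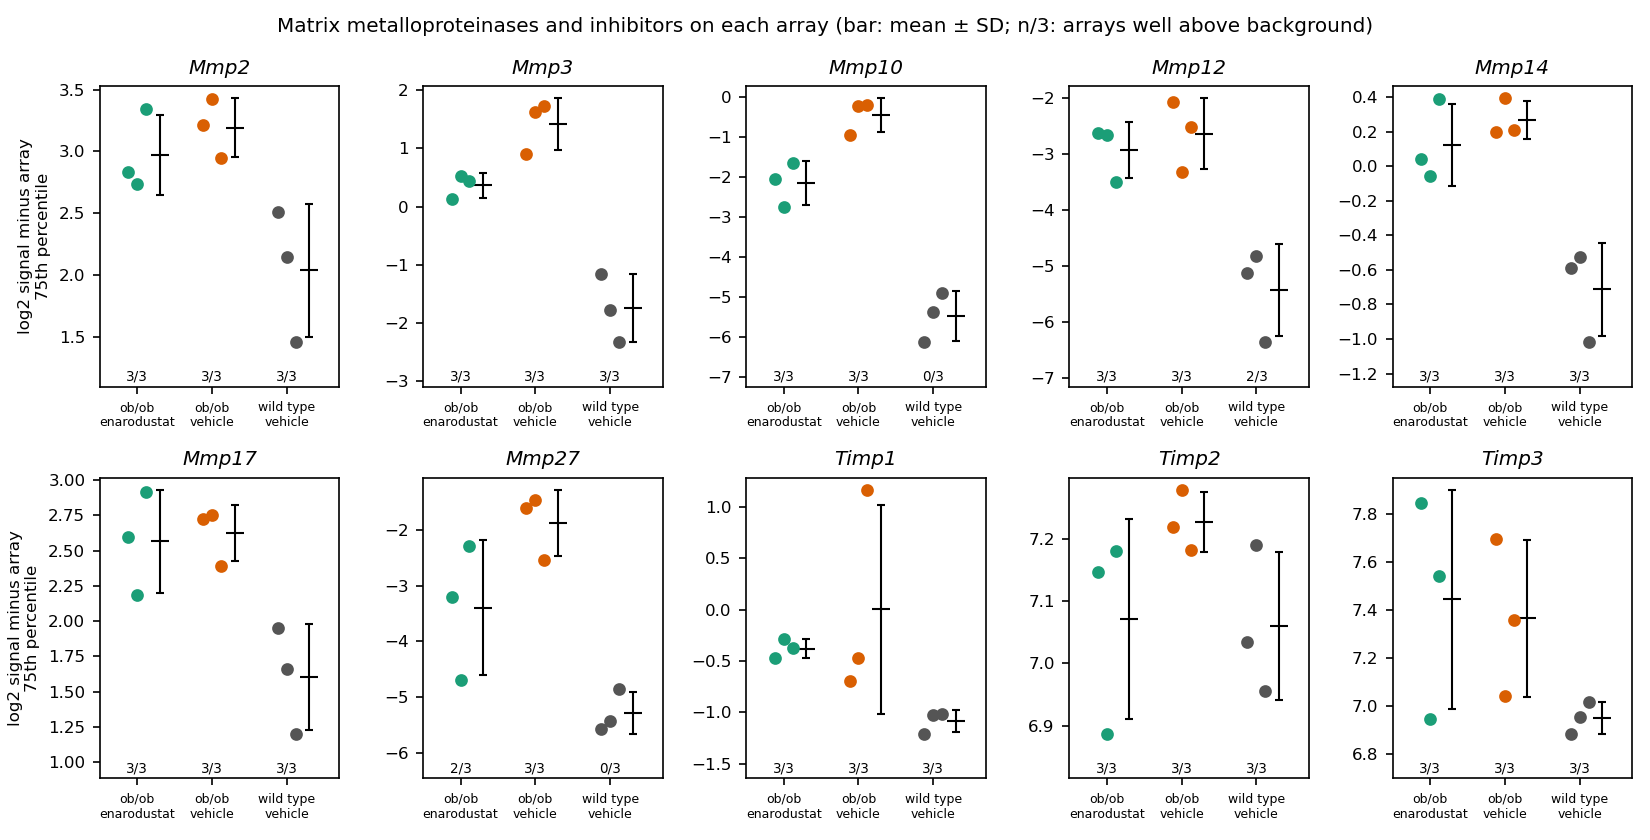
Levels of the 10 genes on each array (y axis, log2 signal minus the 75th percentile of the array, on a scale of its own in each panel) in ob/ob enarodustat, ob/ob vehicle and wild type vehicle glomeruli. Points are arrays in replicate order, bars the mean ± SD, and the fraction under each group counts arrays well above background. For Mmp3 and Mmp10 the 3 enarodustat arrays lie between the other groups, and for Timp1 ob/ob vehicle replicate 3 lies apart at 1.17.

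For both stromelysins, all enarodustat arrays lay between those of the other groups. How many of all features had this order was not counted. The choice of the genes used both outer groups, so nothing is read from the order. Mmp3, stromelysin 1, had levels of 0.13, 0.53 and 0.44 in enarodustat, of 0.90, 1.62 and 1.72 in ob/ob vehicle and of -1.16, -1.78 and -2.32 in wild type. The 3 groups did not overlap, with enarodustat in the middle. Ob/ob vehicle was 8.98-fold above wild type in the means (log2 difference 3.17 ± 0.32, SE of the fit, n = 3 arrays a group). Enarodustat was 2.07-fold below ob/ob vehicle (log2 difference -1.05 ± 0.32, 95% interval -1.77 to -0.33), with an adjusted p of 0.683 by limma, so this difference was not called. Enarodustat was 4.34-fold above wild type (2.12 ± 0.32, limma adjusted p = 0.00693) and was higher in 3 of 3 arrays.

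Mmp10, stromelysin 2, had levels of -2.04, -2.75 and -1.66 in enarodustat, of -0.95, -0.23 and -0.20 in ob/ob vehicle and of -6.13, -5.36 and -4.90 in wild type. Here too the groups did not overlap and enarodustat lay in the middle. None of the wild type arrays had the probe well above background, so only bounds can be given. Such a bound sets the mean of the brighter group against, on each array of the dimmer group, the higher of the lowest signal among probes well above background and the probe's own signal. In processed signal, the ob/ob vehicle mean was at least 25.9-fold above wild type, and the enarodustat mean at least 8.05-fold above it. These bounds hold on that scale alone and leave out the spread between arrays. The differences with another background correction, given below, were smaller. The filter fixed a difference from wild type, and with no filter the adjusted p for enarodustat was 0.0106 (limma). With normexp background and quantile normalization the fitted log2 differences from wild type were 0.96 for enarodustat (against 3.31 otherwise) and 2.07 for ob/ob vehicle. Between the ob/ob groups, both of which were measured, enarodustat was 3.22-fold lower (log2 difference -1.69 ± 0.38, 95% interval -2.55 to -0.82). Its unadjusted p was 0.00181 and its adjusted p 0.597 by limma over all 24153 features.

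Mmp27, a less studied MMP of the same cluster, had levels of -3.21, -4.69 and -2.28 in enarodustat, of -1.61, -1.46 and -2.55 in ob/ob vehicle and of -5.57, -5.43 and -4.85 in wild type. It was well above background on 2 of 3 enarodustat arrays, on 3 of 3 ob/ob vehicle arrays and on 0 of 3 wild type arrays. The enarodustat and ob/ob vehicle arrays overlapped, and enarodustat replicate 2 came close to the wild type arrays. In processed signal, ob/ob vehicle was at least 9.77-fold and enarodustat at least 3.39-fold above wild type, with the same limits as for Mmp10. With no filter the difference of enarodustat from wild type was not called (limma adjusted p = 0.138). The fitted log2 difference of enarodustat from ob/ob vehicle was -1.53 ± 0.56, with 1 enarodustat array not well above background, and since the filter was passed through ob/ob vehicle alone it is a description. With no filter its adjusted p was 0.854 (limma). With normexp background and quantile normalization the fitted log2 differences were -0.57 for enarodustat from ob/ob vehicle, 0.41 for enarodustat from wild type and 0.99 for ob/ob vehicle from wild type.

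Mmp12, macrophage elastase, had levels of -2.62, -2.67 and -3.49 in enarodustat, of -2.08, -3.32 and -2.51 in ob/ob vehicle and of -5.12, -4.82 and -6.37 in wild type, where 2 of 3 arrays were well above background. The ob/ob groups overlapped each other, and both lay above all wild type arrays. Ob/ob vehicle was 6.97-fold above wild type. Enarodustat was 5.70-fold above wild type (log2 difference 2.51 ± 0.46), with an adjusted p of 0.0350 by limma with no filter and of 0.0133 with the filter, which Mmp12 passed through the ob/ob groups alone. Without enarodustat replicate 2 and wild type replicate 3, the arrays highest in tubule markers, the adjusted p with the filter was 0.0653 and Mmp12 was no longer called. With normexp background and quantile normalization the log2 differences from wild type were 0.53 for enarodustat and 0.69 for ob/ob vehicle. The drug comparison gave -0.29 ± 0.46 (95% interval -1.34 to 0.76, limma adjusted p = 0.894). The other 2 probes of Mmp12 were too dim to be kept.

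Macrophage markers, too, had higher mean levels in both ob/ob groups than in wild type. Their mean level over 14 genes was 1.49, 1.12 and 0.80 in enarodustat, 1.91, 1.00 and 1.37 in ob/ob vehicle and -0.58, -0.05 and -0.42 in wild type. The level summed over the list ran from 6.29 to 6.62 in enarodustat, from 6.65 to 6.73 in ob/ob vehicle and from 6.08 to 6.25 in wild type, on the log2 scale. All 14 were well above background on every enarodustat and ob/ob vehicle array, and 12 of 14 on every wild type array. Of the 14, 9 rose in ob/ob vehicle (beside 4.89% of all features) and 7 in enarodustat (beside 6.1%), both against wild type. Levels of Itgam and Mrc1 overlapped between ob/ob vehicle and wild type. Between the ob/ob groups 0 of the 14 were called, and the median log2 difference was -0.26. Fibroblast markers, with 5 of 7 kept and Lum and Dpt not, had mean levels of 2.95, 2.96 and 3.06 in enarodustat, of 3.21, 3.14 and 2.68 in ob/ob vehicle and of 1.85, 2.80 and 1.79 in wild type. Only 1 of the 5 rose in ob/ob vehicle (beside 4.89% of all features) and 1 in enarodustat (beside 6.1%), both against wild type. Their summed log2 level ran from 7.04 to 7.29 in enarodustat, from 7.25 to 7.35 in ob/ob vehicle and from 7.23 to 7.31 in wild type, with overlap. Podocyte markers had mean levels of 4.95, 4.52 and 5.08 in enarodustat, of 4.98, 5.08 and 5.11 in ob/ob vehicle and of 5.80, 5.93 and 5.86 in wild type. Of these markers, 8 of 10 fell in enarodustat (beside 4.09% of all features) and 6 of 10 in ob/ob vehicle (beside 2.66%), each against wild type. The part of these cells in the MMP levels was not tested. The marker lists were chosen with earlier results of these data known, so nothing is read from the counts of markers called. In such bulk RNA, more cells of a type and more RNA per cell cannot be told apart.

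**Figure D2:**
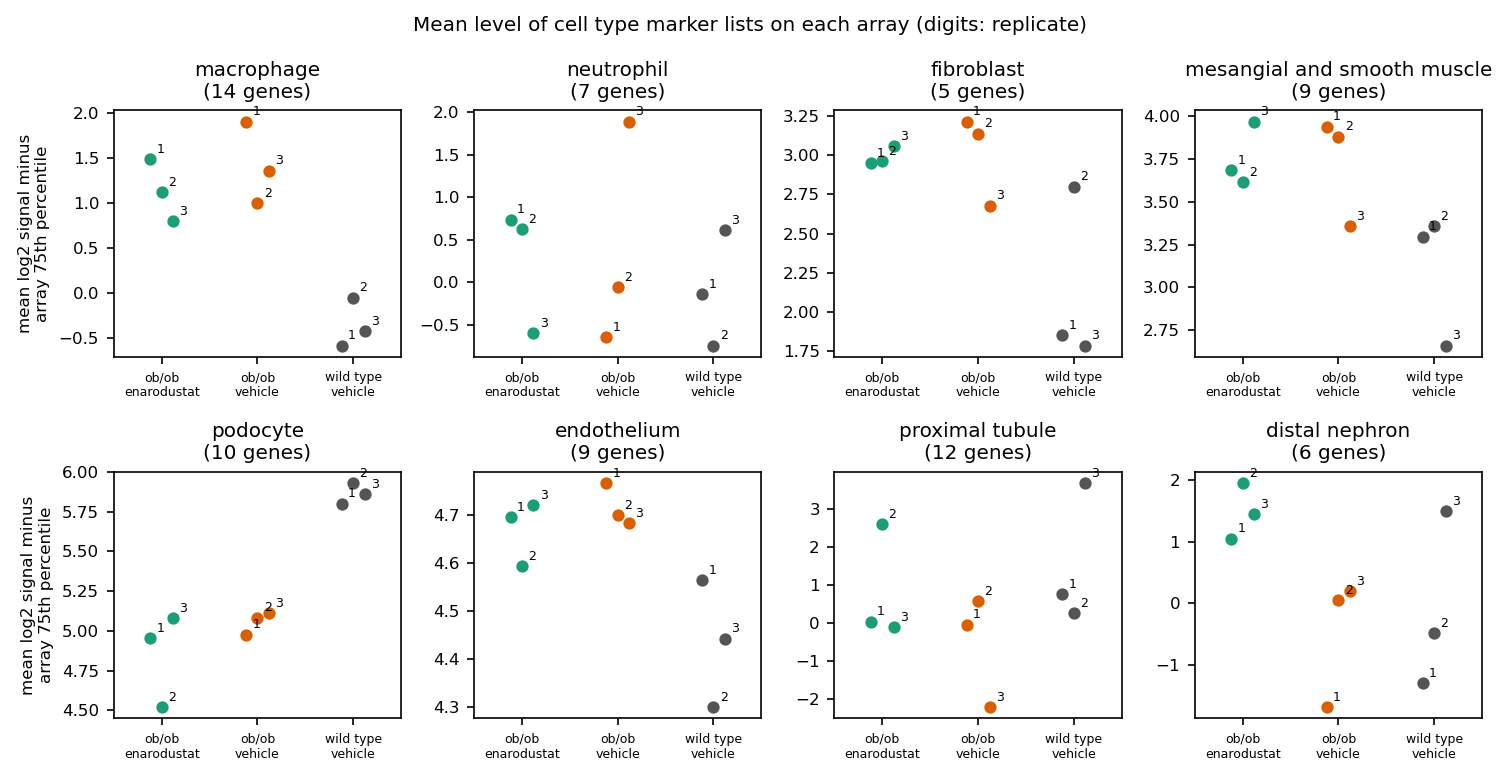
Mean level of 8 lists of cell type markers on each array (y axis, log2 signal minus the 75th percentile of the array, averaged over the genes of the list) by group, with the replicate number beside each point. The macrophage list lies above wild type in both ob/ob groups, the podocyte list below it, and neutrophil markers reach 1.89 in ob/ob vehicle replicate 3.

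MMP2, MMP14 and TIMP2 act together on the cell surface, and their genes differed less between groups. Mmp2, gelatinase A, had levels of 2.84, 2.73 and 3.34 in enarodustat, of 3.21, 3.42 and 2.94 in ob/ob vehicle and of 2.51, 2.14 and 1.45 in wild type. Both ob/ob groups lay above all wild type arrays and overlapped each other. Ob/ob vehicle was 2.23-fold above wild type. The log2 difference of enarodustat from wild type was 0.93 ± 0.28 and missed the threshold (limma adjusted p = 0.0711), which it passed without wild type replicate 1 (0.0444). From ob/ob vehicle it was -0.22 ± 0.28 (95% interval -0.86 to 0.42, limma adjusted p = 0.860).

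Mmp14, the membrane-bound activator of MMP2, had levels of 0.04, -0.06 and 0.39 in enarodustat, of 0.20, 0.39 and 0.21 in ob/ob vehicle and of -0.59, -0.53 and -1.02 in wild type. All ob/ob arrays were again above all wild type arrays, with overlap between the ob/ob groups. Ob/ob vehicle was 1.97-fold above wild type. Mmp14 rose 1.78-fold in enarodustat against wild type (log2 difference 0.83 ± 0.17, limma adjusted p = 0.0203). That call held in 19 of 23 alternatives, with limma adjusted p from 0.0102 to 0.0616. Among the fits that lost it was the one without enarodustat replicate 3, the array on its own slide (0.0616). Another was the one with no filter on dim probes (0.0532). Between the ob/ob groups the difference was -0.14 ± 0.17 (95% interval -0.53 to 0.25, limma adjusted p = 0.852).

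Timp2, which both inhibits MMPs and guides the activation of MMP2, had levels of 7.15, 6.89 and 7.18 in enarodustat, of 7.22, 7.28 and 7.18 in ob/ob vehicle and of 7.03, 7.19 and 6.96 in wild type. The highest enarodustat array and the lowest ob/ob vehicle array were both at 7.18, and both groups overlapped wild type. The log2 difference of ob/ob vehicle from wild type was 0.17 ± 0.12. That of enarodustat from ob/ob vehicle was -0.16 ± 0.12 (95% interval -0.43 to 0.12, limma adjusted p = 0.796). That of enarodustat from wild type was 0.01 ± 0.12, and its sign turned under quantile normalization (-0.12) and under other settings. A second probe of Timp2 gave levels of 2.69, 2.43 and 2.86 in enarodustat, of 2.93, 3.07 and 2.88 in ob/ob vehicle and of 2.87, 2.75 and 2.33 in wild type.

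**Figure D3:**
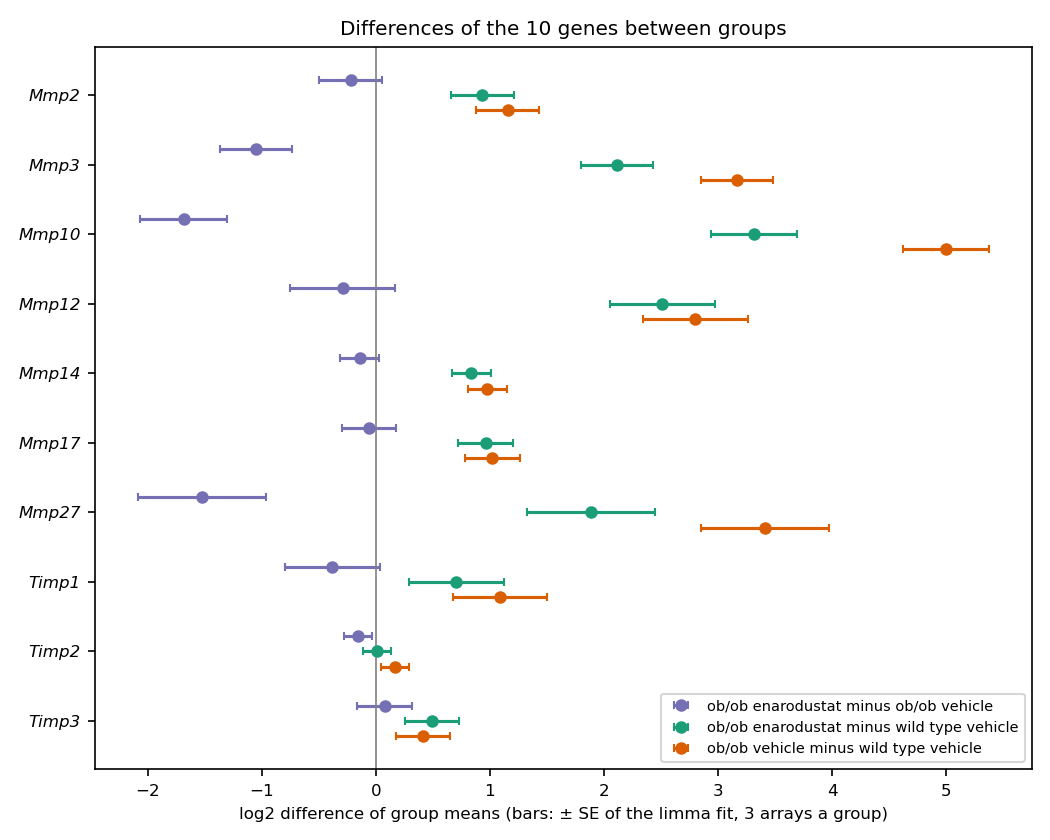
Log2 differences of group means for the 10 genes (x axis; bars are ± SE of the limma fit, 3 arrays a group) in 3 comparisons. The differences from wild type are positive for both ob/ob groups, from 0.01 for Timp2 upward. Between the ob/ob groups those of Mmp3, Mmp10 and Mmp27 are below -1. The wild type levels of Mmp10 and Mmp27 were not well above background, so their fitted differences from wild type are no bounds.

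Mmp17, an MMP held in the membrane by a lipid anchor, had levels of 2.60, 2.18 and 2.91 in enarodustat, of 2.73, 2.75 and 2.39 in ob/ob vehicle and of 1.95, 1.66 and 1.20 in wild type. Both ob/ob groups lay above wild type and overlapped. Ob/ob vehicle was 2.03-fold above wild type. Enarodustat was 1.95-fold above it (log2 difference 0.96 ± 0.24, limma adjusted p = 0.0395). That call held in 11 of 23 alternatives, with adjusted p from 0.0104 to 0.117. Among single arrays, it was lost without replicate 1 or 3 of enarodustat, 1 or 2 of ob/ob vehicle, and 2 or 3 of wild type. The drug comparison gave -0.06 ± 0.24 (95% interval -0.60 to 0.49, limma adjusted p = 0.967).

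Timp1, the inducible inhibitor, had levels of -0.48, -0.29 and -0.37 in enarodustat, of -0.69, -0.47 and 1.17 in ob/ob vehicle and of -1.21, -1.03 and -1.02 in wild type. Both ob/ob groups lay above all wild type arrays, and ob/ob vehicle replicate 3 lay far above the other arrays of its group. The log2 difference of ob/ob vehicle from wild type was 1.09 ± 0.41, and 0.50 without that array. Against wild type the difference of enarodustat was 0.71 ± 0.41 and was not called (limma adjusted p = 0.319). Without ob/ob vehicle replicate 3, which widens the shared spread, its adjusted p was 0.0159. The difference of enarodustat from ob/ob vehicle was -0.38 ± 0.41 (95% interval -1.33 to 0.56, limma adjusted p = 0.838), and 0.20 without that array, with the opposite sign.

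The same array had a high mean level of neutrophil markers, beside its low level of tubule markers. Within its group, S100a8 (2.77), S100a9 (4.46) and Retnlg (0.59) were far higher on it. Mpo, Elane and Csf3r lay near their levels on the other ob/ob vehicle arrays, and Ly6g was slightly higher. The mean level of the 7 neutrophil markers was 0.74, 0.63 and -0.60 in enarodustat, -0.65, -0.06 and 1.89 in ob/ob vehicle and -0.14, -0.75 and 0.61 in wild type. Their summed log2 level ran from 6.62 to 6.87 in enarodustat, from 6.59 to 7.07 in ob/ob vehicle and from 6.77 to 7.30 in wild type. In each group 6 of the 7 were well above background on all 3 arrays, though not the same 6 in every group. Mmp8, neutrophil collagenase, had -1.62 on that array, against -3.33 and -3.22 on the other ob/ob vehicle arrays. Whether neutrophil or tubule RNA bears on the Timp1 level there was not tested.

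Timp3, the inhibitor that binds to the matrix, had levels of 7.84, 6.95 and 7.54 in enarodustat, of 7.70, 7.04 and 7.36 in ob/ob vehicle and of 6.88, 6.95 and 7.02 in wild type. Enarodustat overlapped both other groups, and the ob/ob vehicle arrays lay just above wild type. The log2 differences were 0.08 ± 0.24 for enarodustat from ob/ob vehicle (95% interval -0.47 to 0.63, limma adjusted p = 0.954), 0.49 ± 0.24 for enarodustat from wild type (limma adjusted p = 0.232) and 0.41 ± 0.24 for ob/ob vehicle from wild type.

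The probes of Timp3 disagreed. A second probe of the same RefSeq transcript had levels of 7.50, 6.86 and 7.48 in enarodustat, of 7.43, 6.92 and 7.17 in ob/ob vehicle and of 6.54, 6.56 and 6.66 in wild type, the same pattern. The remaining probe, which the files assign to another Ensembl transcript, lies on chromosome 10 from 85769407 to 85769466 in build mm9, 42.3 kb from the probe used. Its levels were 0.63, 1.06 and 0.53 in enarodustat, 0.96, 1.04 and 1.16 in ob/ob vehicle and 2.23, 1.32 and 1.89 in wild type, so here wild type was higher than both ob/ob groups. Averaging the 3 probes turned the sign of the drug difference to -0.04. The second probe of Mmp17 also gave a higher mean in both ob/ob groups, with levels of -2.83, -2.96 and -2.66 in enarodustat, of -2.75, -2.42 and -2.78 in ob/ob vehicle and of -3.05, -3.58 and -4.08 in wild type.

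Mmp3, Mmp10, Mmp12 and Mmp27 belong to a run of 10 MMP genes on mouse chromosome 9, in the order Mmp13, Mmp12, Mmp1b, Mmp3, Mmp1a, Mmp10, Mmp8, Mmp27, Mmp20 and Mmp7. All 10 had probes, and 5 passed the filter (the 4 members and Mmp8). Mmp1a and Mmp1b, the mouse interstitial collagenases, which lie on either side of Mmp3, were not well above background on any of the 9 arrays. Mmp13, collagenase 3, had levels of -4.08, -5.39 and -4.98 in enarodustat, of -2.61, -4.56 and -5.57 in ob/ob vehicle and of -6.54, -6.10 and -7.09 in wild type, and was well above background on 2, 2 and 0 arrays of these groups. It failed the filter and was not tested. Mmp20, the enamel MMP, was well above background on 1 array alone, ob/ob vehicle replicate 3 (-2.32).

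The 4 members of the cluster were picked in part for their difference from wild type. Setting them against the neighbours on both sides therefore cannot show whether that difference is confined to the cluster. Mmp8, the other cluster gene tested, was not called in ob/ob vehicle against wild type (log2 difference 0.70 ± 0.39, limma adjusted p = 0.323). Of 10 flanking genes, 9 were tested, and 1 was called in ob/ob vehicle against wild type, beside 7.55% of all features. This was Casp12, an inflammatory caspase homologue and the outermost of the 5 genes taken on its side, which rose by 1.00 ± 0.19 on the log2 scale (limma adjusted p = 0.0162). In enarodustat against wild type Casp12 rose by 0.86 ± 0.19 (limma adjusted p = 0.0255). Birc3, an inhibitor of cell death that NF-kappaB induces, had a difference of 0.79 ± 0.30 for ob/ob vehicle from wild type and was not called (limma adjusted p = 0.160).

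**Figure D4:**
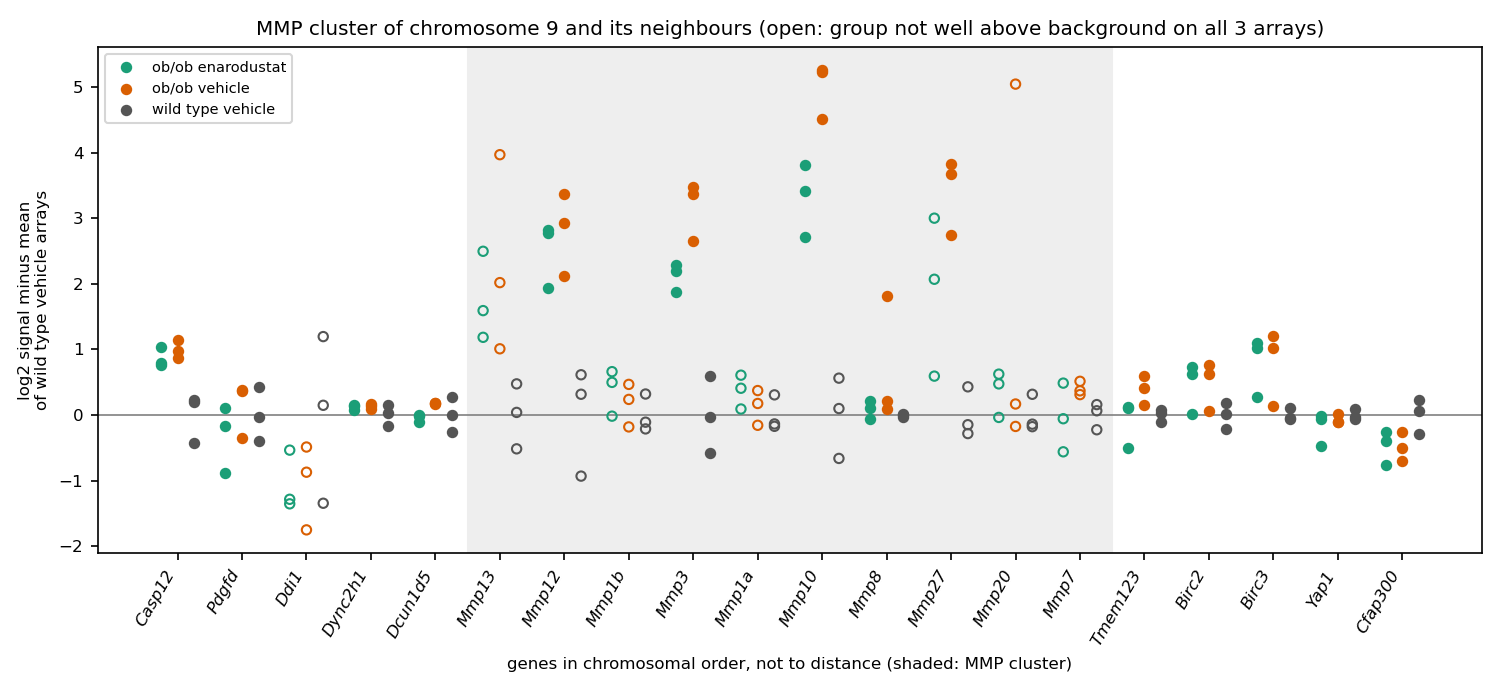
Levels of the 10 MMP genes of the chromosome 9 cluster (shaded) and 5 genes on each side, in chromosomal order, as log2 signal minus the mean of the wild type arrays (y axis). Points are arrays; open points mark groups not well above background on all 3 arrays. Mmp12, Mmp3, Mmp10 and Mmp27 stand above 0 in both ob/ob groups, with Mmp1b and Mmp1a between them at background.

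The genes whose pattern over the 9 arrays was most like that of a member were found by the root mean square difference of levels centred on each gene's mean, among 18391 named genes. For Mmp3 they were Hs6st2, which adds sulphate to heparan chains (0.379 log2 units), C5ar1, the receptor of complement C5a (0.450), and Samsn1, an adaptor of blood cells (0.457). For Mmp10 they were Slpi, a secreted protease inhibitor (0.638), the chemokine Ccl2 (0.716) and the matrix protein Spon2 (0.770). Levels of Slpi were 0.80, 0.03 and 0.44 in enarodustat, 1.49, 1.90 and 1.50 in ob/ob vehicle and -2.26, -1.96 and -1.99 in wild type, in the same order of groups as Mmp10. For Mmp12 they were the cathepsin gene Ctss (0.287), Treml4 (0.332) and 5430437J10Rik (0.372), and Ctss is itself one of the macrophage markers. For Timp1 they were Stfa3 (0.129), the metallothionein gene Mt2 (0.226) and Cntf (0.227). Like Timp1, Stfa3 was highest in ob/ob vehicle replicate 3, at -2.30, against -3.99 and -4.17 on the other arrays of that group.

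The wider set of matrix proteolysis genes comprised 8 lists of 101 other genes, of which 83 passed the filter. The lists were written with earlier results of these data known, so nothing is read from the shares called about the lists as a set. Of the 83, 18 rose and 4 fell in ob/ob vehicle against wild type (26.5% called, beside 7.55% of all features, of which 4.89% were higher and 2.66% lower). In enarodustat against wild type 13 rose and 6 fell (22.9% called, beside 10.2% of all features, of which 6.1% were higher and 4.09% lower). Of the 22 called in ob/ob vehicle, 12 were called in each of the 9 fits without 1 array, and of the 19 called in enarodustat 10 were. Between the ob/ob groups 0 were called. Limma gave an unadjusted p under 0.05 there for 5 of the 83 genes, beside 1692 of all 24153 features. Nothing is read from this count, and the 5 genes were named after their values were seen. Enarodustat was lower for Thbs1 (log2 difference -1.01), Cd44 (-0.79) and Il1b (-1.28), and higher for the protease gene Hpn (1.66) and for Egf (1.00), with adjusted p of at least 0.592.

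Among the other MMP and TIMP genes, 8 of 17 passed the filter. Timp4 had levels of -1.03, -1.68 and -0.63 in enarodustat, of -0.67, -3.49 and 0.40 in ob/ob vehicle and of -4.91, -4.53 and -4.30 in wild type. Timp4 rose by 3.33 ± 0.83 on the log2 scale in ob/ob vehicle (limma adjusted p = 0.0477) and by 3.47 ± 0.83 in enarodustat (0.0354), both against wild type. The call in ob/ob vehicle held in 8 of 23 alternatives and that in enarodustat in 12, and the adjusted p reached 0.144 and 0.110 when 1 array was left out. Mmp23 had levels of 3.04, 2.74 and 3.28 in enarodustat, of 3.19, 3.22 and 3.66 in ob/ob vehicle and of 3.93, 4.10 and 3.93 in wild type. It fell by 0.97 on the log2 scale in enarodustat against wild type (limma adjusted p = 0.0131), a call that held in 21 of 23 alternatives. Mmp9, gelatinase B, was well above background on 1 array, enarodustat replicate 2 (-2.15). The 9 genes that failed the filter were Mmp1a, Mmp1b, Mmp7, Mmp9, Mmp13, Mmp20, Mmp21, Mmp24 and Mmp25.

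Of 16 ADAMTS genes, secreted relatives of the MMPs that trim collagen precursors and proteoglycans, 4 rose and 1 fell in ob/ob vehicle, and 4 rose and 2 fell in enarodustat, against wild type. Adamts14, a procollagen peptidase, had levels of 3.66, 3.26 and 3.62 in enarodustat, of 3.54, 3.55 and 3.76 in ob/ob vehicle and of 2.37, 2.30 and 2.15 in wild type. It rose by 1.24 ± 0.14 in enarodustat (limma adjusted p = 0.00299) and by 1.34 ± 0.14 in ob/ob vehicle (0.00233). Adamts9, which cuts the proteoglycans versican and aggrecan, rose by 1.35 ± 0.22 in enarodustat (0.00912) and by 1.70 ± 0.22 in ob/ob vehicle (0.00425). Adamts16 fell by 1.86 in enarodustat (0.00638) and by 2.02 in ob/ob vehicle (0.00484). The others called were Adamts12 and Adamts2, which rose in both groups, and Adamts17, which fell in enarodustat. The Adamts17 call held in 6 of 22 alternatives, and 1 of 3 enarodustat arrays was well above background for it. The Adamts2 calls held in 17 of 23 alternatives in enarodustat and in 18 in ob/ob vehicle. Among 10 ADAM genes, a family that includes membrane-bound sheddases, Adam15 and Adam9 rose in ob/ob vehicle, by 0.64 and 1.01. In enarodustat Adam15 rose by 0.64. The Adam15 calls held in 14 of 23 alternatives in enarodustat and in 13 in ob/ob vehicle, and the Adam9 call in 19.

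The plasminogen system, whose product plasmin activates MMPs, had 8 tested genes. Serpine2, an inhibitor of serine proteases that include plasminogen activators, rose by 1.16 ± 0.15 on the log2 scale in enarodustat (limma adjusted p = 0.00461) and by 1.32 ± 0.15 in ob/ob vehicle (0.00330). Plaur, the urokinase receptor, rose by 0.61 ± 0.15 in ob/ob vehicle (0.0416), a call that held in 8 of 23 alternatives and in 1 of 9 fits without 1 array (adjusted p up to 0.192 over the alternatives). None of the 8 was called lower in these comparisons.

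Of 10 genes whose proteins activate, anchor or clear MMPs, 3 rose in ob/ob vehicle against wild type. Thbs1, whose product thrombospondin 1 binds MMPs and TGF-beta, had levels of 2.92, 2.55 and 2.65 in enarodustat, of 3.93, 3.89 and 3.31 in ob/ob vehicle and of 2.36, 1.43 and 1.90 in wild type. The 3 groups did not overlap, and the share of all features with such an order was not counted. Thbs1 rose by 1.82 ± 0.26 in ob/ob vehicle (limma adjusted p = 0.00576), and its difference in enarodustat from wild type was 0.81 ± 0.26 (0.0850). Cd44, the hyaluronan receptor that holds MMPs at the cell surface, had levels of -2.72, -2.51 and -3.08 in enarodustat, of -2.18, -1.95 and -1.82 in ob/ob vehicle and of -3.66, -3.32 and -4.37 in wild type, again with no overlap. It rose by 1.01 ± 0.27 in enarodustat (0.0479) and by 1.80 ± 0.27 in ob/ob vehicle (0.00660). The enarodustat call of Cd44 held in 5 of 23 alternatives and in 1 of 9 fits without 1 array (adjusted p up to 0.295 over the alternatives), and the ob/ob vehicle call in 22. Thbs2 rose in ob/ob vehicle (0.77 ± 0.17, 0.0278), a call that held in 14 of 23. Pcsk5, which encodes a proprotein convertase, fell by 0.56 in enarodustat (0.0402) and by 0.62 in ob/ob vehicle (0.0344), against wild type. The Pcsk5 calls held in 9 of 23 alternatives in enarodustat and in 12 in ob/ob vehicle, and in 1 and 3 of 9 fits without 1 array.

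Of 10 cathepsin and cystatin genes, Ctss, Ctsk and Cstb rose and Ctsh fell in ob/ob vehicle against wild type. Ctss, a cathepsin of antigen-presenting cells, rose by 2.32 ± 0.27 in enarodustat (limma adjusted p = 0.00320) and by 2.55 ± 0.27 in ob/ob vehicle (0.00248). Ctsk, a collagen-cutting cathepsin, rose by 1.50 ± 0.28 in enarodustat (0.0135) and by 1.79 ± 0.28 in ob/ob vehicle (0.00768). Ctsh fell by 1.09 in enarodustat (0.00376) and by 1.06 in ob/ob vehicle (0.00412). The Cstb call held in 13 of 23 alternatives.

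Of 13 genes of AP-1, ETS and RUNX factors, which bind MMP promoters, none encoding an AP-1 subunit was called in these comparisons. Etv5, an ETS factor, rose by 0.78 ± 0.12 in enarodustat (limma adjusted p = 0.00692) and by 0.66 ± 0.12 in ob/ob vehicle (0.0125), against wild type. Runx1 rose in ob/ob vehicle (0.82 ± 0.19, 0.0335) and Etv4 in enarodustat (0.76 ± 0.20, 0.0450). The Runx1 call held in 9 of 23 alternatives and in 2 of 9 fits without 1 array, and the Etv4 call in 11 of 23 and in 2 of 9. Fosl1 failed the filter. Of 8 tested genes of cytokines that act on MMP and TIMP genes, Egf fell by 1.26 in ob/ob vehicle (0.0117) and Hbegf fell by 1.09 in enarodustat (0.0215), both against wild type. The Egf call held in 22 of 23 alternatives and the Hbegf call in 16. Il1a, Il6 and Osm failed the filter. Egf is made by distal tubule cells, and the 6 distal nephron markers had mean levels of 1.05, 1.95 and 1.45 in enarodustat, of -1.69, 0.06 and 0.20 in ob/ob vehicle and of -1.30, -0.49 and 1.49 in wild type. Their part in the Egf and Hpn values was not tested.

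**Figure D5:**
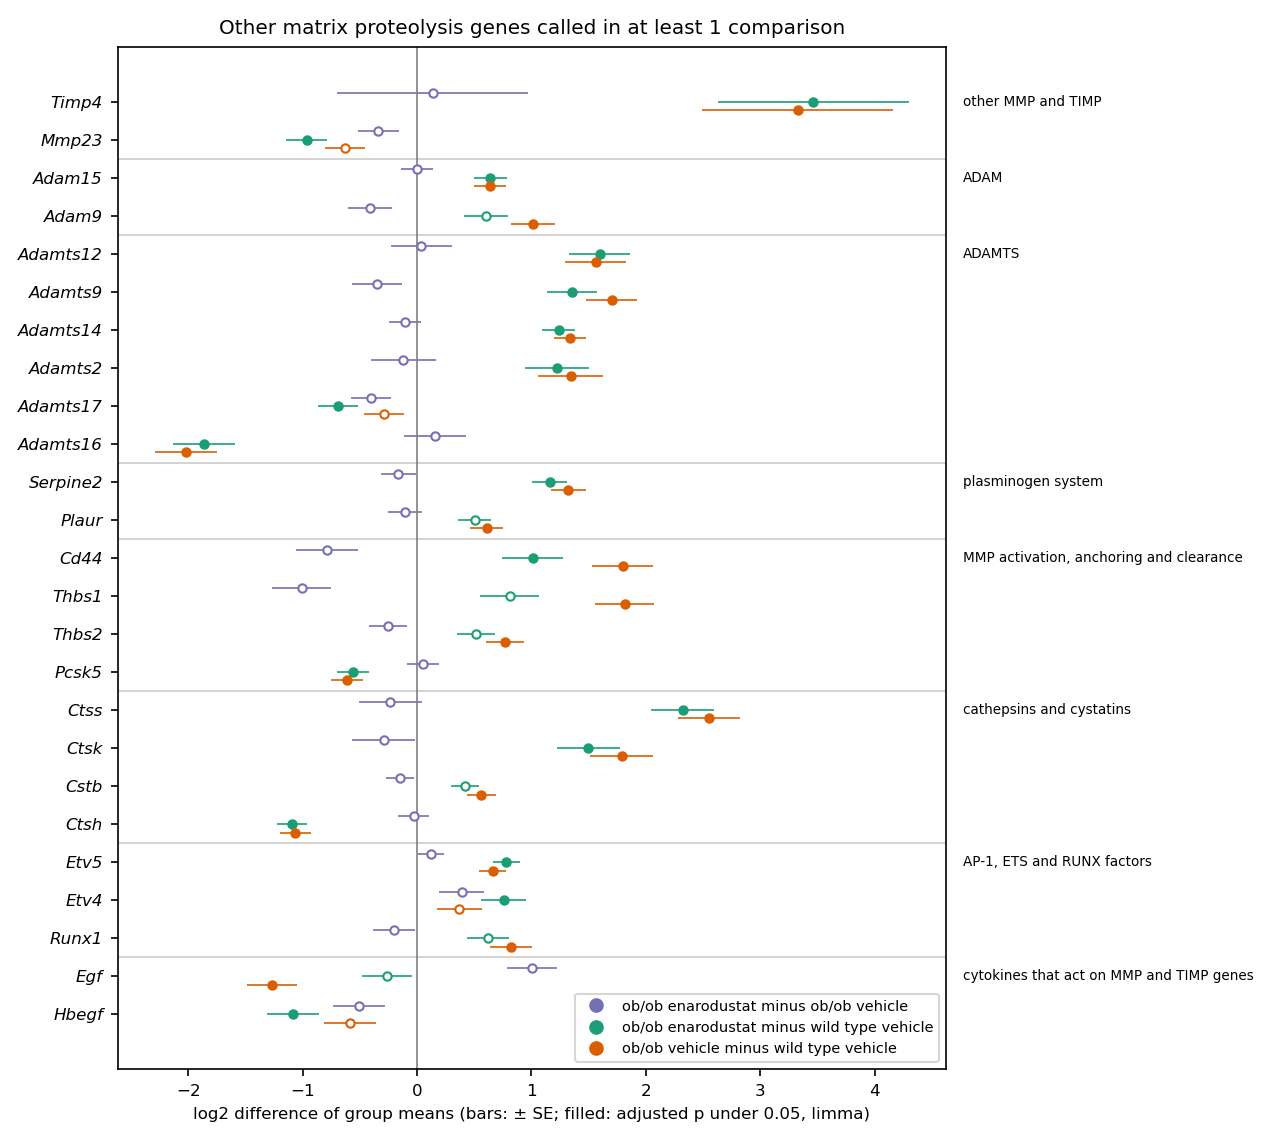
Log2 differences of group means (x axis; bars are ± SE of the limma fit) for matrix proteolysis genes called in at least 1 comparison, grouped by list. Filled points passed an adjusted p under 0.05. Between the ob/ob groups no point is filled.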

How the data were processed

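Cy3-labelled total RNA of isolated glomeruli was measured on 9 one-colour Agilent arrays. Per the file headers, the authors read the spots with Agilent Feature Extraction (version 11.5.1.1), and each deposited scanner file gives a processed spot intensity on a linear scale, background-subtracted and not normalized between arrays. Limma, too, appears in the submitters' processing notes with no stated use. The value table deposited by the authors is on a log2 scale. Compared with the scanner files, it is log2 processed signal minus about the 75th percentile, with no centring of genes, and its column medians were -3.04, -2.95 and -3.05 in enarodustat, -3.10, -3.06 and -3.06 in ob/ob vehicle and -3.07, -3.03 and -2.93 in wild type.

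Control spots and outlier spots were left out and spots of a probe averaged. Values were log2 intensity minus the 75th percentile of the array. Of 56605 probes, 36671 were kept because all arrays of 1 or more groups had them well above background, and 32 with only outlier spots were removed. A gene was represented by the kept probe of highest mean over all arrays. Limma 3.58.1 in R 4.3.3 (lmFit, contrasts.fit, eBayes) was fitted to all 3 groups, with Benjamini-Hochberg adjustment over 24153 features and calls at an adjusted p under 0.05. The steps were tested on simulated data. With 3 arrays a group, the number of arrays limits the precision.

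The members, gene lists and marker lists were chosen with earlier results of these data known. The text names all members, up to 3 called genes of each list with the smallest p, and for 4 members the 3 nearest patterns. Adamts12, Adamts2, Adamts17, Pcsk5, Cstb and the flanking genes Casp12 and Birc3 were named after their values were seen. So were the single macrophage and neutrophil markers. A list gene that is included in the counts is not reported or drawn here. Alternatives were other normalizations, the normexp background (offset 50), the filter, the rule for probes, blocks, array weights and the leaving out of arrays.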

Additional observations from a re-analysis of the deposited data

How the results depend on the processing

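In 23 alternatives, 9 of which leave out 1 array, none of the 10 genes and none of the 83 list genes was called between the ob/ob groups, and no feature was, while limma gave between 1162 and 2445 features an unadjusted p under 0.05. Against wild type, 5 genes were called in enarodustat, with 3 when all probes entered the test, 3 with probes well above background on all 9 arrays (Mmp10 and Mmp12 then drop out), 3 with slide as a block and 3 to 6 without 1 array. The 22 list genes called in ob/ob vehicle against wild type became 14 with no filter, 37 with array weights, 10 with the proximal tubule level as a covariate, 14 with only the groups compared in the fit and 14 to 21 without 1 array. The 19 called in enarodustat became 11 with no filter, 31 with array weights, 11 with slide as a block and 11 to 17 without 1 array. Enarodustat replicate 3 alone makes the slide block, and without it 3 of the 10 genes and 11 list genes were called in enarodustat. Without enarodustat replicate 1 these list genes were 12, and without ob/ob vehicle replicate 1 those called in ob/ob vehicle were 14. The counts over all features ran from 718 to 4182 in ob/ob vehicle and from 1215 to 4530 in enarodustat, against 1824 and 2461. A cause was not tested, apart from fewer or more features or arrays in the fit.

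Signs turned only for small differences that were not called. Timp2 in enarodustat against wild type (0.01) became -0.12 with quantile normalization, -0.16 with normexp, -0.053 with array weights, -0.022 with the tubule covariate, -0.043 with slide as a block and -0.043 to 0.104 without 1 array. Between the ob/ob groups, Mmp17 (-0.06) became 0.089 with the tubule covariate, 0.13 without enarodustat replicate 2 and wild type replicate 3, and -0.23 to 0.13 without 1 array. Timp3 (0.08) became -0.042 with the mean of probes and -0.12 to 0.33 without 1 array, and Timp1 (-0.38) ran from -0.73 to 0.20. With normexp background and quantile normalization, the log2 difference from wild type was 0.96 in enarodustat and 2.07 in ob/ob vehicle for Mmp10 (against 3.31 in enarodustat otherwise), 0.53 and 0.69 for Mmp12 (against 2.51 and 2.80), and 0.41 and 0.99 for Mmp27 (against 1.89 and 3.41).

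Replicate numbers did not pair the samples, as correlations of same-numbered deviations ran from -0.31 to 0.27. With the replicate number as a block, 4 of the 10 genes (Mmp17 lost) and 16 list genes were called in enarodustat against wild type, 18 list genes in ob/ob vehicle, and 0 between the ob/ob groups.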
